A study of Zingiber officinale with 6 samples.

Results

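The genes described here were highly expressed in the leaf blades of unexposed ginger and much lower, yet still expressed, in plants exposed to the volatile organic compounds of Pythium oligandrum (Po-VOCs). They were selected on their measured levels. A gene was taken when its lowest value in the 3 control plants was 10 FPKM or more and at least 4 times its highest value in the 3 exposed plants, and when its lowest exposed value was 0.5 FPKM or more. FPKM is a count scaled to the length of the gene model and to the total count of the library, so it can be compared between genes. Of the 55601 genes in the expression table, 29 met this rule. All values that chose the genes are given below as a description and carry no test.

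The plants were ginger (Zingiber officinale) of the Laiwu variety, raised from tissue culture, with 1 plant in each pot. In the Po-VOCs group the pot stood on a sealed glass jar in which P. oligandrum strain GAQ1 grew on V8 agar, so that volatiles reached the roots through holes in the pot. In the control group the jar held V8 agar alone. After 21 days the blades of the uppermost leaves were taken, and 1 mRNA library was made for each of 3 plants per group. The roots faced the jar and the leaves were measured, so the data concern the leaf blade of plants exposed from below. Total counts lay between 13695463 and 14662442 per library.

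Mature mRNA levels reflect both the making and the breakdown of a transcript, and a highly expressed gene can be lowered many times and still be read well above the detection limit of sequencing. In a bulk leaf sample, fewer cells of a type and less RNA per cell cannot be told apart. The ginger genome used for mapping, Zo_v1.1, is assembled as an A set and a B set of 11 chromosomes each, so many loci appear as an A copy and a B copy with separate gene numbers. Its source plant is labelled Zhangliang, whereas the plants sequenced were Laiwu. The tables used here give the 29 genes no description, so they are named by their gene numbers and no function is assigned.

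As a group, the 29 genes made up 0.859%, 0.726% and 0.479% of all counts in control plants 1, 2 and 3. In exposed plants 1, 2 and 3 they made up 0.0272%, 0.0626% and 0.029%. The median member stood at 50.9, 35.6 and 31.1 FPKM in the control plants, above 93.2% to 96.2% of all genes. In the exposed plants the median member stood at 3.95, 3.89 and 2.52 FPKM, above 50.7% to 54.8% of all genes. These shares are over all 55601 genes in the expression table, of which 48697 to 50442 had counts in a given library. Among genes with counts the median member of the exposed plants stood lower than these shares. A fall of this kind was required by the selection rule.

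Mean expression in the exposed plants was between 0.940% and 17.3% of the control mean, with a median of 8.04%. Only 5 genes kept less than 5% of their control level, 14 kept 5% to 10%, and 10 kept 10% or more. The means were 5.80 to 106 times lower, with a median of 12.4. On the log2 scale of the edgeR fit the members lay between -6.82 and -2.52, with a median of -3.62, beside a median of 0.0128 over all 41508 genes tested. In that fit, a gene was called when its adjusted p was below 0.05, its log2 fold change was beyond 1 in size and its mean was above 1 FPKM in the higher group. By this definition 1.02% of all genes tested were called lower and 1.09% were called higher, and 28 of the 29 members were among the lower ones. DESeq2 called 3.01% of its genes lower, all 29 members among them. Because the same contrast chose the members, nothing is read from these member counts.

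**Figure D1:**
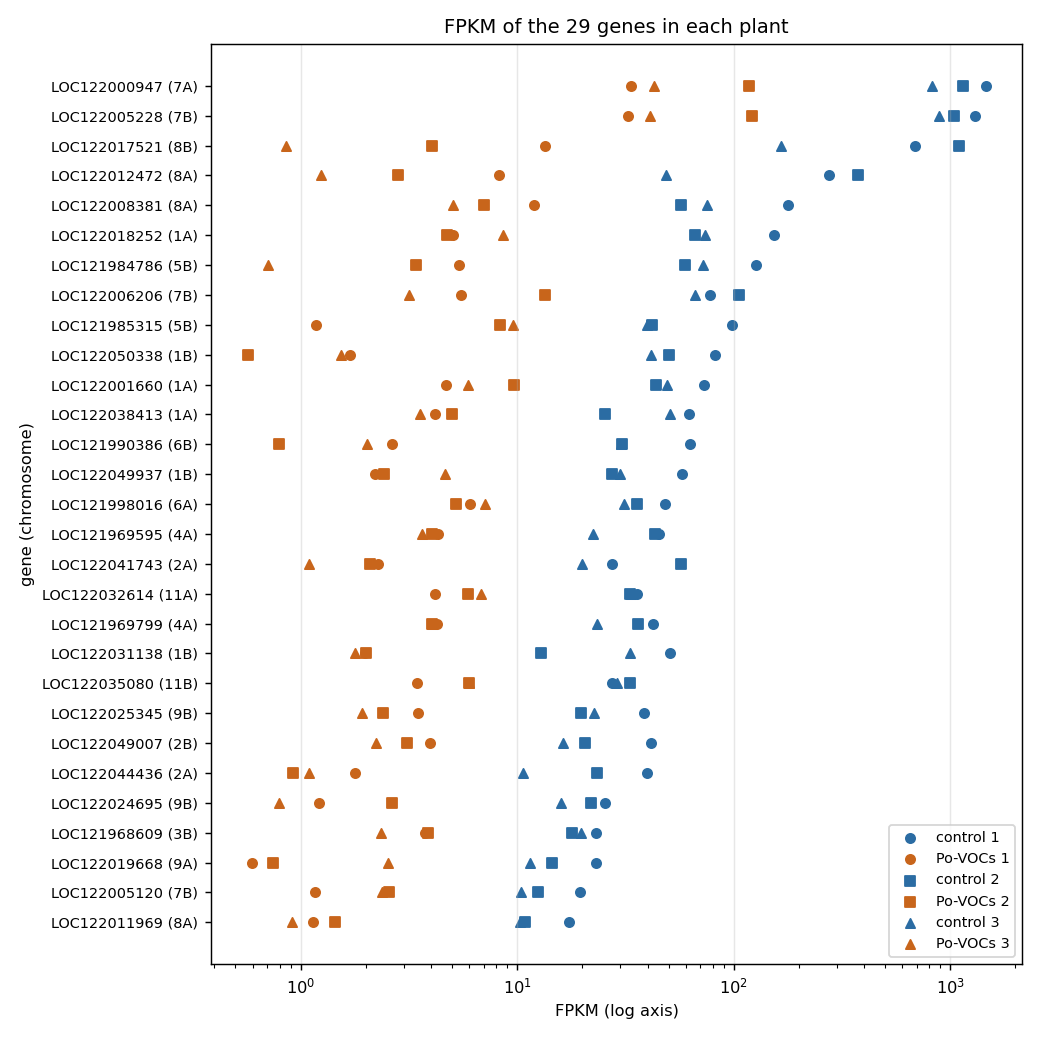
Expression of the 29 genes in each of the 6 plants, with FPKM on a log axis and the genes ordered by control mean. Blue marks are control plants, orange marks are Po-VOC-exposed plants, and the shape gives the replicate. The 2 groups do not overlap for any gene, which the selection rule required, and the gap is widest for LOC122050338.

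The control means spread widely. In 5 genes the mean was over 100 FPKM, in 6 it lay between 50 and 100, and in 18 it was under 50. At the top stood an A and B pair on chromosome 7. LOC122000947, on chromosome 7A from 9142075 to 9145881, read 1455, 1148 and 819 FPKM in control plants 1, 2 and 3 and 33.5, 118 and 42.8 in exposed plants 1, 2 and 3. Its counterpart LOC122005228, on chromosome 7B from 7307002 to 7310805, read 1299.8, 1040.5 and 888 FPKM and then 32.5, 122 and 41.2. In both copies control plant 1 was highest. Exposed plant 2 led the exposed group, at 3.53 times its lowest plant for the 7A copy and 3.75 times for the 7B copy, and was still far under every control plant.

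The mean of LOC122000947 was 1141 ± 318 FPKM in control and 64.8 ± 46.4 in exposed plants (SD, n = 3). For LOC122005228 it was 1076 ± 208 and 65.2 ± 49.4 (SD, n = 3). The 7A copy ranked between 20 and 58 among all genes in the control plants and between 669 and 3393 in the exposed plants. The 7B copy ranked between 24 and 52, and then between 639 and 3502. Together the pair supplied 60.9% to 72.1% of the member counts in the control plants, and 49.1% to 77.6% in the exposed plants. The summed share of the 29 genes thus largely follows this single pair, and the medians over genes given above do not.

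The next pair lay on chromosome 8 and had the deepest loss of all. LOC122017521, on chromosome 8B from 9911593 to 9912829, read 688, 1101 and 165 FPKM in the control plants and 13.5, 4.05 and 0.858 in the exposed plants. LOC122012472, on chromosome 8A from 11961058 to 11962299, read 274, 373 and 48.6 FPKM and then 8.22, 2.83 and 1.25. The order of the plants was the same in both copies. Control plant 2 was highest and control plant 3 lowest, while exposed plant 1 was highest and exposed plant 3 lowest.

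These 2 copies also varied most within the control group. Their highest control plant was 6.69 times the lowest for LOC122017521 and 7.67 times for LOC122012472. The 8B copy kept 0.940% of its control mean and the 8A copy 1.77%. The edgeR log2 fold change was -6.82 ± 1.14 (SE) for LOC122017521 and -5.90 ± 0.97 (SE) for LOC122012472, the largest errors among the 29 genes. Only 13 reads of LOC122017521 were counted in exposed plant 3, with an exact Poisson 95% interval of 6.92 to 22.2. Such an interval covers counting error only.

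The other genes with a control mean above 80 FPKM lay on 4 different chromosomes. LOC122008381, on chromosome 8A from 33682024 to 33683496, read 179, 57.1 and 75.5 FPKM in the control plants and 12.01, 7.02 and 5.07 in the exposed plants. LOC122018252, on chromosome 1A from 10717960 to 10719599, read 154, 66.1 and 73.9 FPKM and then 5.08, 4.74 and 8.64. Control plant 1 was more than 2 times the other control plants for both genes, and the exposed plants lay within a range of 2.37 times for the former and 1.82 times for the latter.

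LOC121984786, on chromosome 5B from 85876574 to 85890608, read 127, 59.5 and 72.4 FPKM in the control plants and 5.38, 3.40 and 0.711 in the exposed plants. LOC122006206, on chromosome 7B from 88160698 to 88162176, read 77.7, 106 and 65.9 FPKM and then 5.53, 13.5 and 3.16. For the first gene exposed plant 3 stood far under the other exposed plants. For the second, exposed plant 2 stood above them, as it did for the chromosome 7 pair.

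The clearest separation by the ratio of the lowest control to the highest exposed value was that of LOC122050338, on chromosome 1B from 10434844 to 10438504. It read 82.3, 50.01 and 41.5 FPKM in the control plants against 1.69, 0.571 and 1.54 under exposure, which is a ratio of 24.6. LOC121990386, on chromosome 6B from 86281662 to 86282820, followed LOC122017521 with a ratio of 11.5. It read 62.6, 30.6 and 30.3 FPKM and then 2.64, 0.794 and 2.03. LOC121984786 had a ratio of 11.05. The median ratio over the 29 genes was 5.70, so most members lay much nearer to the threshold than these genes.

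Just inside the threshold of 4 were LOC122005120, LOC122049007, LOC121985315 and LOC121998016, with ratios of 4.05, 4.10, 4.19 and 4.37. LOC122005120, on chromosome 7B from 4759734 to 4763359, read 19.4, 12.5 and 10.4 FPKM in the control plants and 1.17, 2.57 and 2.37 in the exposed plants. LOC121985315, on chromosome 5B from 108705642 to 108706879, read 97.7, 41.9 and 39.9 FPKM and then 1.18, 8.32 and 9.54. The exposed plants of LOC121985315 spread 8.09-fold, with exposed plant 1 far lowest. It is the member that edgeR did not call, with an adjusted p of 0.0809.

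Just outside the threshold were LOC122032662, LOC122034393, LOC122042946 and LOC121975756, with ratios of 3.98, 3.97, 3.96 and 3.91. LOC122034393 read 252, 132 and 162 FPKM in the control plants and 6.95, 26.8 and 33.3 in the exposed plants. LOC121975756 read 81.3, 58.2 and 65.2 FPKM and then 11.7, 14.9 and 8.12. By levels and change these genes resembled the members on the other side of the threshold. Another 9 genes met the first 2 conditions but had an exposed plant under 0.5 FPKM, and 1 of those had no count in any exposed plant. The member nearest to that lower limit was LOC122050338, and the nearest gene beyond it was LOC121990523, with 219, 459 and 122 FPKM in control and 0.519, 0.646 and 0.337 in exposed plants.

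The remaining members had control means of 12.8 to 55.3 FPKM. The lowest was LOC122011969, on chromosome 8A from 3495727 to 3501737, with 17.3, 10.9 and 10.3 FPKM in the control plants and 1.15, 1.45 and 0.915 in the exposed plants. Every member had reads in every plant, which the selection rule required. The smallest count of any member in any plant was 6 reads, for LOC122024695 in exposed plant 3 and LOC122019668 in exposed plant 1, each with an exact Poisson 95% interval of 2.2 to 13.1. The lowest control count of a member was 119 reads. LOC122019668, on chromosome 9A from 13112410 to 13113217, overlaps the annotated gene LOC122019667, so the reads of this member are uncertain.

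Within the groups the members differed in how tightly the plants lay together. LOC121969799, on chromosome 4A from 34370304 to 34371802, read 42.6, 36.0 and 23.4 FPKM in the control plants and 4.26, 4.03 and 4.05 in the exposed plants. LOC122031138, on chromosome 1B from 6316513 to 6317597, read 50.9, 12.9 and 33.0 FPKM and then 1.99, 2.00 and 1.78. In these genes the exposed plants differed by 1.06-fold and 1.12-fold, while the control plants differed by 1.82-fold and 3.96-fold. LOC122032614 on chromosome 11A showed the reverse, with 35.9, 33.3 and 33.7 FPKM in control and 4.18, 5.92 and 6.79 in exposed plants.

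The spread between control plants was larger for the members than for other genes of high expression. The median coefficient of variation over the 3 control plants was 37.1% for the 29 members and 12.2% for the 10688 other protein-coding genes whose lowest control value was 10 FPKM or more. In the exposed plants it was 37.2% and 17.6%. Those 2 figures were not taken at like expression levels. The median log2 fold change was -3.62 in the members and -0.0676 in the other genes. In the control plants the coefficient of variation exceeded 12.2% in 27 of the 29 members. These are descriptions, as the same values entered the selection rule.

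Control plant 1 was the highest control plant for 24 of the 29 members, or 82.8%. Among the other 10690 genes whose lowest control value was 10 FPKM or more it was the highest for 40%. Control plant 3 was lowest for 18 members, or 62.1%, against 37.9% of those other genes. Both held together for 14 members. In the exposed group no plant led as often as control plant 1, with plants 1, 2 and 3 highest for 12, 11 and 6 members. Those are 41.4%, 37.9% and 20.7%, against 40.7%, 18.6% and 40.7% of the other genes. Exposed plant 2 was thus highest more often among the members than among the other genes, and exposed plant 3 less often. Without control plant 1 the median log2 fold change of the members was -3.16, beside -3.62 with all plants. EdgeR then called 17 of the 29, among 37 genes called lower in all. Calls were not lost with control plant 1 alone. Without control plant 2 or 3 edgeR called 2 and 28 members, among 3 and 614 genes. Without exposed plant 1, 2 or 3 it called 28, 6 and 2 members, among 428, 12 and 5 genes.

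**Figure D2:**
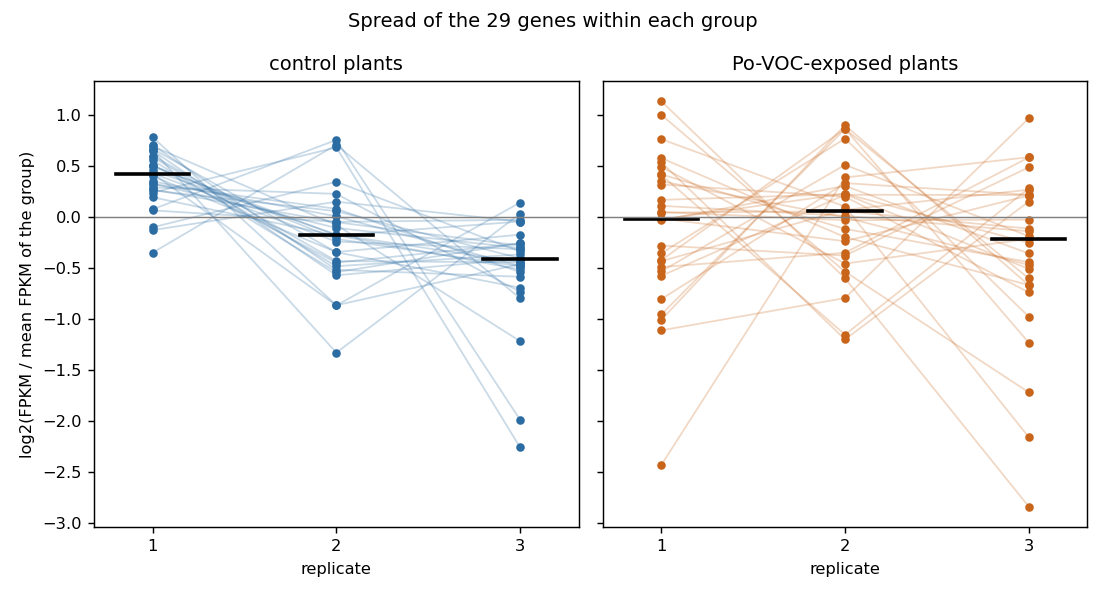
Each member's FPKM in each plant, divided by the mean of its group and put on a log2 scale, for control plants on the left and Po-VOC-exposed plants on the right. Lines join the values of 1 gene and bars mark the median over the 29 genes. Control plant 1 lies above the others for 24 genes, while exposed plants 1, 2 and 3 are highest for 12, 11 and 6 genes.

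The members were scattered over the genome. They lay on 17 of the 22 chromosomes, 14 on the A set and 15 on the B set, with at most 3 on any chromosome. Chromosomes 1A, 1B, 7B and 8A held 3 each. The closest members on a chromosome were LOC122049937 and LOC122050338 on 1B, with 21 annotated genes and 379582 bases between them. No member was a near neighbour of another.

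A feature of most members that the rule did not use was the shape of the gene. The median annotated span of the members was 1479 bases, beside 4134.5 bases for the 10688 other highly expressed protein-coding genes. The exonic length implied by the counts and the FPKM covered a median of 87.2% of the span in the members and 35.4% in the other genes. The exonic lengths themselves were closer, with medians of 1238 and 1430 bases. The short span of the members therefore went with little intron sequence rather than with a much shorter transcript. A high exonic share was not limited to the members. It was 57.9%, 79.3%, 23.2% and 100% in LOC122032662, LOC122034393, LOC122042946 and LOC121975756, the genes just outside the threshold of 4.

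Most members fitted this description. Their span was under 2000 bases in 21 of 29 genes, and exons covered at least 99% of the span in 6 genes, or 20.7%, against 6.68% of the other highly expressed genes. These 6 include LOC122018252, LOC121985315 and LOC122049937. A single annotated transcript was listed for 26 members, or 89.7%, against 67.6% of the other genes. LOC121984786 departed furthest, with a span of 14035 bases of which 9.28% was exonic. Prominent members departed too. The chromosome 7 pair, LOC122000947 and LOC122005228, had spans of 3807 and 3804 bases, of which 53.1% and 53.2% was exonic. LOC122050338 had 3661 bases with 55.5% exonic, and LOC122025345 had 4050 bases with 35.8% exonic. No test was made of these differences, since 8 of the members are aligned to one another as A and B copies.

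**Figure D3:**
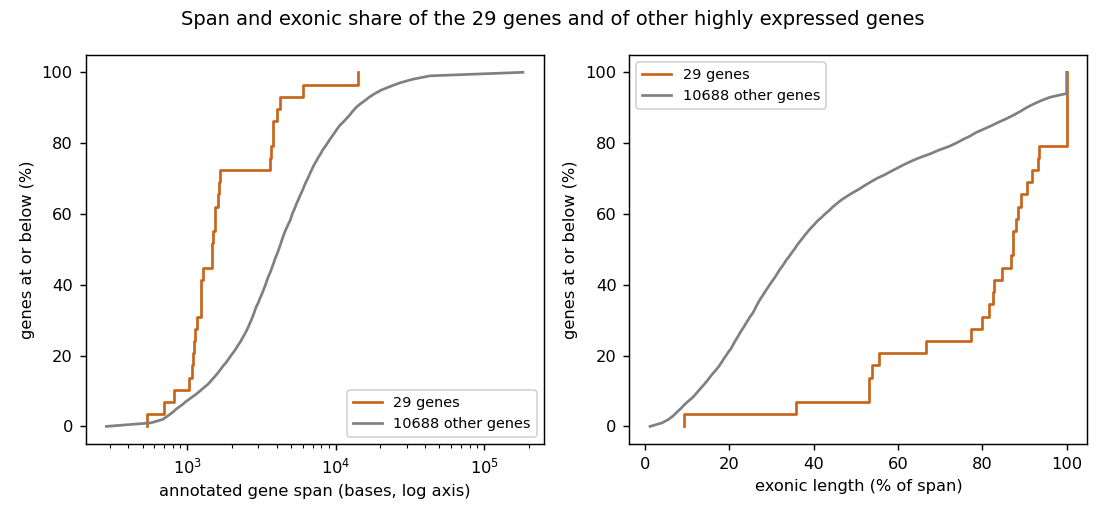
Cumulative share of genes by annotated span on a log axis, left, and by the share of the span that is exonic, right, for the 29 members in orange and 10688 other highly expressed protein-coding genes in grey. The members lie toward short spans, with a median of 1479 against 4134.5 bases, and toward a high exonic share, with a median of 87.2% against 35.4%.

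The A and B chromosome sets allowed a look at genes the rule had not chosen. Genes were aligned in order along each A chromosome and the B chromosome of the same number by their span, which gave 14513 pairs. Sequences were not used for this, and a pair is a probable counterpart only. Of the 29 members, 15 fell into 11 pairs and 14 had no aligned counterpart. In 4 pairs both copies were members, and in 7 pairs the other copy was not.

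All 7 counterparts outside the set were lower in the exposed plants, with no overlap between the groups, a pattern seen in 12.4% of all genes tested. By edgeR 5 of the 7 were called lower, and their median log2 fold change was -2.97. Among all genes called lower that had a tested counterpart, members included, the counterpart was called lower in 84 of 190, or 44.2%. The 5 of 7 is thus to be read beside this share as well as beside the 1.02% of all genes. How reads that match both copies were counted is not stated. The level of a counterpart therefore cannot be fully separated from that of its member.

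LOC121994190 is the 6A counterpart of LOC121990386 and lies from 92792756 to 92793883. It read 33.7, 14.1 and 8.93 FPKM in the control plants and 0.294, 0.183 and 0.764 in the exposed plants, a log2 fold change of -5.49 ± 0.75 (SE) with an edgeR adjusted p of 0.0254. LOC122020980 is the 9A counterpart of LOC122024695 and lies from 3953574 to 3954104. It read 9.40, 16.1 and 13.5 FPKM and then 0.275, 0.771 and 0.268, a log2 fold change of -4.83 ± 0.47 (SE) with an edgeR adjusted p of 0.0133. Both were missed by the rule through a control plant under 10 FPKM and exposed plants under 0.5.

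LOC122046266 is the 2B counterpart of LOC122041743 and lies from 88861743 to 88866013. It read 13.6, 28.98 and 8.46 FPKM in the control plants and 1.05, 0.711 and 0.217 in the exposed plants, with a log2 fold change of -4.72 ± 0.63 (SE) and an edgeR adjusted p of 0.0237. LOC121989065 on 6B, the counterpart of LOC121998016, read 50.2, 32.1 and 33.2 FPKM and then 7.75, 6.12 and 10.4, with an edgeR adjusted p of 0.0278. LOC122000831 on 7A, the counterpart of LOC122005120, read 11.99, 7.91 and 7.68 FPKM and then 2.07, 2.85 and 2.79, with an edgeR adjusted p of 0.0297. The last 2 fell least, with log2 fold changes of -2.25 and -1.84.

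LOC122018689 and LOC122047802 did not pass the edgeR test, with adjusted p of 0.0765 and 0.106. LOC122018689 is the 1A counterpart of LOC122050338 and read 3.06, 2.39 and 4.84 FPKM in the control plants, against 82.3, 50.01 and 41.5 for its B copy. In the exposed plants LOC122018689 read 0.892, 0.0666 and 0.382 FPKM. LOC122047802 is the 1B counterpart of LOC122001660 and read 3.95, 3.03 and 10.1 FPKM, then 0.441, 1.72 and 0.215. In these 2 pairs most of the expression in control plants came from the copy that is a member. The A copy gave 94.9%, 93.5% and 82.9% of the pair for LOC122001660, and 3.59%, 4.56% and 10.4% for LOC122018689.

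The calls of the 7 counterparts depended on which plant was left out. Without control plant 1, 2 or 3 the edgeR fit called 1, 0 and 5 of them, and without exposed plant 1, 2 or 3 it called 6, 1 and 0. In every one of these fits all 7 had a log2 fold change under 0 and an unadjusted p under 0.05, and DESeq2 on all plants called 7. When pairs were limited to spans within 1% of each other, a choice made after the data were seen, 3 counterparts were left and 1 was called.

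**Figure D4:**
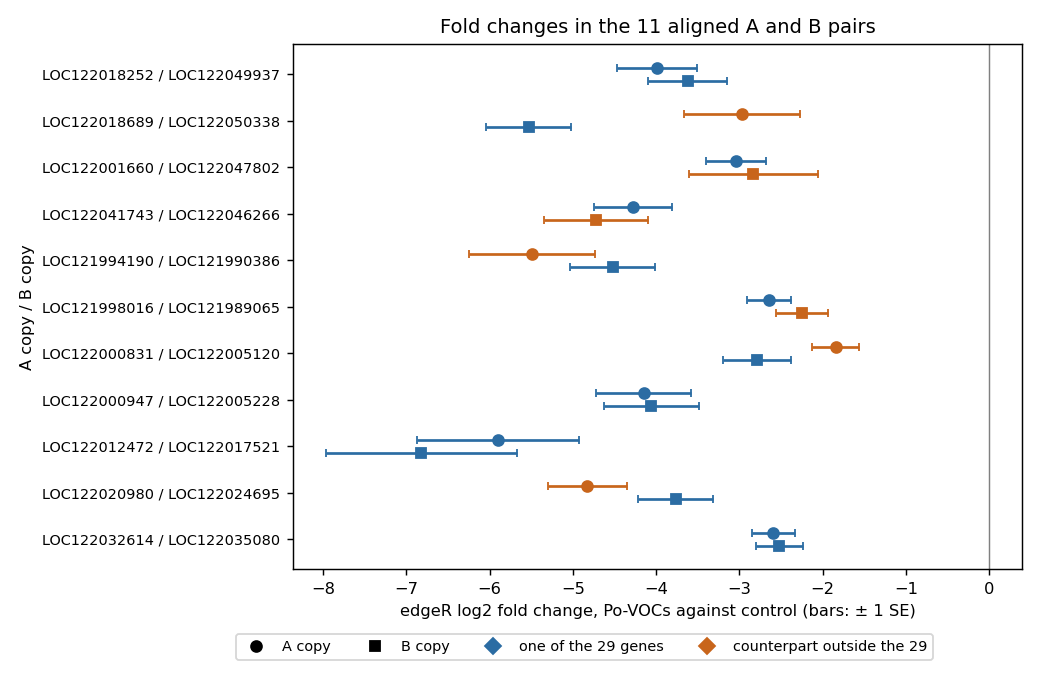
The edgeR log2 fold change of the A copy (circle) and the B copy (square) in each of the 11 aligned pairs that hold a member, with bars of 1 SE. Members are blue and the 7 counterparts outside the set are orange. All 22 genes lie below 0, and 4 pairs have both copies blue.

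Within a pair, the share of the summed FPKM that came from the A copy shows whether both copies moved alike. In the chromosome 7 pair the A copy gave 52.8%, 52.5% and 48.0% in the control plants and 50.7%, 49.2% and 51.0% in the exposed plants, so the balance stayed near even while the level fell. In the chromosome 11 pair of LOC122032614 and LOC122035080 the share was 56.8%, 50.1% and 53.8%, then 54.8%, 49.7% and 53.2%. In both pairs the groups overlapped.

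The chromosome 8 pair behaved otherwise. The A copy gave 28.5%, 25.3% and 22.8% in the control plants and 37.9%, 41.2% and 59.3% in the exposed plants. In exposed plants 2 and 3 these shares rest on 45 and 19 reads of the A copy and 64 and 13 of the B copy. By the means the B copy, more abundant in the control plants, lost more. The log2 fold changes, -6.82 ± 1.14 (SE) for the B copy and -5.90 ± 0.97 (SE) for the A copy, overlap within 1 SE. Because both copies were read in the same plants, this overlap does not judge their difference, which was not tested. The fourth pair of members, LOC122018252 on 1A and LOC122049937 on 1B, went from 72.8%, 70.7% and 71.3% to 69.8%, 66.2% and 65.1%. LOC122049937 lies on chromosome 1B from 10053602 to 10055262 and read 57.7, 27.5 and 29.8 FPKM in the control plants and 2.20, 2.42 and 4.63 in the exposed plants.

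Over the 11 pairs the share did not overlap between the groups in 6, of which 2 had both copies in the set. In the other 4 of these 6, only the A or only the B copy was a member. Among all 9356 pairs compared, 20% did not overlap. The share uses the same FPKM values as the selection rule. A large fall required of only the A or only the B copy can itself move the share. The 6 of 11 is therefore a description and is not weighed against the 20%. The share was not tested pair by pair, since a two-sided exact permutation test of 3 plants against 3 gives no p under 0.1. Reads that match both copies equally well cannot be assigned to one of them, and the counting of such reads is not stated in the methods. The shares are uncertain to that extent.

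LOC122044436 on 2A and LOC122049007 on 2B were not aligned, because their spans of 1279 and 1535 bases differ. They lie between the same pair of aligned flanking genes, however, with 4 genes in that interval on either chromosome. LOC122044436, from 18556065 to 18557343, read 39.97, 23.4 and 10.6 FPKM in the control plants and 1.77, 0.921 and 1.09 in the exposed plants. LOC122049007, from 15970690 to 15972224, read 41.6, 20.6 and 16.2 FPKM and then 3.95, 3.09 and 2.24. Control plant 1 was highest and control plant 3 lowest for both genes, and exposed plant 1 was highest for both.

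The genes beside the members showed whether whole neighbourhoods were lowered. The 2 nearest protein-coding genes on each side gave 116 neighbours, none a member, and 86 of them were tested. Their median log2 fold change was -0.0486, and 45 of the 86 were below 0. By edgeR 3 neighbours, or 3.49%, were called lower, beside 1.02% of all genes, and 1 was called higher, beside 1.09%. Neighbours of A and B members may be copies of each other, so the 86 do not all stand for separate loci.

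Of the 3 lowered neighbours, 2 lie next to the unaligned genes on chromosome 2. They fall within the interval described above on 2A and 2B, and may be copies of each other. LOC122040891 begins 2546 bases after LOC122044436 and had means of 28.1 FPKM in control and 11.5 in exposed plants, with a log2 fold change of -1.30 and an edgeR adjusted p of 0.0321. LOC122045402 begins 1934 bases after LOC122049007 and had means of 56.9 and 19.4 FPKM, with a log2 fold change of -1.57 and an edgeR adjusted p of 0.0181. The third, LOC122005229, lies 50705 bases from LOC122005228 and had means of 53.5 and 9.58 FPKM, with a log2 fold change of -2.52 and an edgeR adjusted p of 0.039.

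The neighbours of the most abundant pair varied. LOC122000946 lies 17 bases from LOC122000947 and had means of 0.452 and 0.372 FPKM, and LOC122005227 lies 17 bases from LOC122005228 with means of 0.449 and 0.303 FPKM. Neither was called. The expressed neighbours LOC122000943 and LOC122000948 on 7A and LOC122005226 on 7B had log2 fold changes of -0.72, -0.81 and -0.69 and did not pass the edgeR test, with adjusted p of 0.0761, 0.0936 and 0.0809. LOC122005230 on 7B had a log2 fold change of 0.87 with an edgeR adjusted p of 0.174. The raised neighbour was LOC121984784, which had means of 0.675 FPKM in control and 7.38 in exposed plants and lies 188479 bases from LOC121984786. With single plants left out, LOC122045402 stayed called in 2 of 6 fits, without control plant 3 and without exposed plant 1. LOC122005229 and LOC122040891 stayed called only without control plant 3, and LOC121984784 only without exposed plant 1, with adjusted p of up to 0.138 in the other fits.

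**Figure D5:**
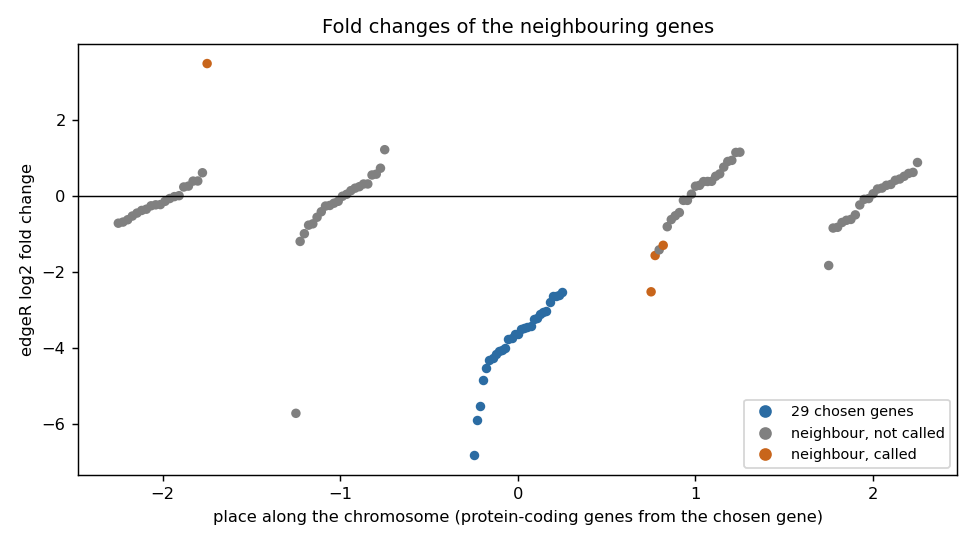
The edgeR log2 fold change of the 29 members, in blue at place 0, and of their tested neighbours at 1 and 2 protein-coding genes on either side, with called neighbours in orange. Within each place the points are ordered by value. The 86 neighbours centre near 0, with a median of -0.0486, and 4 were called.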

How the data were processed

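Leaf-blade RNA-seq of 3 control and 3 Po-VOC-exposed plants was used, with groups taken from the sample labels. According to the methods, the authors trimmed 150-base paired-end reads of stranded mRNA libraries with Trimmomatic, mapped them with HISAT2 to Zo_v1.1 and counted them with HTSeq-count. No version, counting mode or strand setting is stated there. The deposited counts are not normalized. The deposited FPKM values are credited by the authors to Cufflinks, and all 299269 above 0 equalled the count divided by 1 length per gene and by the library total, within 0.1%. That length served as the exonic length.

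The counts were fitted in R 4.3.3 with edgeR 4.0.16 (filterByExpr with a minimum count of 10 and a minimum total count of 15, TMM, quasi-likelihood test, Benjamini-Hochberg over 41508 genes). The SE was taken as the size of the log2 fold change over the root of its F statistic. Alternatives were run in DESeq2 1.42.0 and limma 3.58.1. Simulated counts with known changes were used to test the code. Replicate numbers were not treated as pairs in the main fit.

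All 55601 gene numbers were found in the RefSeq gene table of Zo_v1.1, which gave positions. Protein similarity families, signature lists, leaf markers and promoter motifs had been planned, and were not analysed here because no sequences or product names were used. Counterparts had been planned from protein matches and were instead taken from gene order, with spans within 5%, after the reference had been seen.

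The members and lists were chosen with earlier results of these data known. Named members are the 8 with the highest control mean, the 4 with the largest and 4 with the smallest ratio, and the 4 genes just outside it. Pairs, counterparts, neighbours and the other members were named after their values were seen.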

Additional observations from a re-analysis of the deposited data

How the results depend on the processing

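The selection rule fixed the direction of the members in every fit, so it is no sign of stability, and their calls moved with the plants. With single plants left out, edgeR called between 3 and 614 genes lower among all genes, 2 to 28 of the members and 0 to 6 of the 7 counterparts. The members called were 17, 2 and 28 without control plant 1, 2 or 3, and 28, 6 and 2 without exposed plant 1, 2 or 3. The median log2 fold change ran from -3.794 to -3.161 in the members and from -4.092 to -2.663 in the counterparts, and 33 to 58 genes met the selection rule.

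DESeq2 called 1412 genes lower in place of 424. The replicate number as a block gave 71 genes, 14 members and 2 counterparts. Deviations of each plant from its group mean, gene by gene on a log2 scale, were correlated between the groups. They correlated at -0.0162, 0.0236 and -0.105 for same-numbered plants, and between -0.209 and 0.179 for differently numbered ones. No pairing by number was seen, although 3 plants per group allow only a rough check. On log2(FPKM + 1), limma gave medians of -3.22 for members and -2.118 for counterparts, since the added 1 shrinks low values. A ratio of 3 in the rule gave 56 genes and a ratio of 6 gave 11. FPKM rescaled by TMM factors gave 27 genes, 26 of them members. Counterparts with spans within 1% numbered 3, of which 1 was called. The other normalizations, filters and thresholds kept each count within 1.5 times. Counterparts at 80% protein identity were not run. The cause of these shifts was not tested.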
